A study of Homo sapiens with 18 samples.

Results

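The miR-17-92 cluster (MIR17, MIR18A, MIR19A, MIR20A, MIR19B1 and MIR92A1) is a set of microRNA hairpins on chromosome 13 that are cut from a single primary transcript, MIR17HG. Its members were taken here as all features of at most 500 nt on chromosome 13 that were named for one of the 6 microRNAs and typed as microRNA or precursor RNA. This gave 6 features, 1 for each member, of 175935 features in all.

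The libraries are small RNA-seq of the embryonic kidney line HEK293T, harvested 48 h after transfection with si-SSB (siSSB) or si-scramble (control) using RNAiMAX. SSB encodes La, the RNA chaperone protein of nascent Pol III transcripts, and the series was made to study what its loss does to small RNAs, in particular snaR-A. RNA came from whole cells (total), nuclear (nuc) and cytoplasmic (cyto) fractions prepared with the mirVana PARIS kit, with 3 replicates for each of the 6 groups and 18 libraries in all. All libraries were made with the NEBNext small RNA kit, are labelled Plus_PNK, and come from the same cell line, so nothing in these data shows how the cluster behaves in other cells.

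MicroRNA genes are transcribed by RNA polymerase II into long primary transcripts. The nuclear enzyme Drosha cuts out a hairpin, which is exported to the cytoplasm, where Dicer trims it to a short duplex. An arm of this duplex is then loaded into an Argonaute protein and guides it to target mRNAs through its seed, the bases near its 5′ end. The miR-17-92 cluster is activated by MYC, is often overexpressed in tumors, and is also called oncomiR-1. Its known targets include the proapoptotic gene BIM (BCL2L11).

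The arms that are usually the more abundant of each hairpin are shown first, since arm identity and shared sequence decide how far a count can be assigned to a member. Sequences are from RefSeq (GRCh38.p14), written 5′ to 3′, and capitals mark the seed, bases 2 to 8.
miR-17-5p: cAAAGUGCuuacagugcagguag
miR-20a-5p: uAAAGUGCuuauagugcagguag
miR-18a-5p: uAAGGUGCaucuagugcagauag
miR-19a-3p: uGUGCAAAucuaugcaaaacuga
miR-19b-3p: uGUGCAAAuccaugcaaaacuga
miR-92a-3p: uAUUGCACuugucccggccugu
These 6 arms held 4 seeds. Counting from the 5′ end, miR-17-5p and miR-20a-5p differ at 2 positions (C1U and C12U, miR-17-5p first) and share a seed, while miR-18a-5p carries a G inside the seed relative to miR-17-5p (A4G). miR-19a-3p and miR-19b-3p differ only by U11C. miR-19b-3p of MIR19B1 is identical to that of MIR19B2, and miR-92a-3p of MIR92A1 is identical to that of MIR92A2, both on the X chromosome, so that reads of these mature arms cannot be assigned to a locus by sequence.

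The counted features did not separate hairpins from arms. Each member had 1 feature of 72 or 73 nt on the plus strand, which ran from 25 nt before to 25 nt after its 3p arm in every case. From MIR17 to MIR92A1 these were chr13:91350630-91350701, chr13:91350772-91350844, chr13:91350914-91350986, chr13:91351083-91351154, chr13:91351220-91351292 and chr13:91351336-91351407 (hg38). Each feature therefore held all bases of the 3p arm, the loop and 7 to 12 bases of the 5p arm. The counted stretch is drawn in capitals in the hairpins of 3 members whose counts are set side by side below.
MIR17 hairpin: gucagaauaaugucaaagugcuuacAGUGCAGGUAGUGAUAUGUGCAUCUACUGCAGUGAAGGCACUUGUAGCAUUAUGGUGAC
MIR18A hairpin: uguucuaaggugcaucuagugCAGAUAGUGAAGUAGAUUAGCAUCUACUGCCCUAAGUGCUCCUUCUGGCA
MIR92A1 hairpin: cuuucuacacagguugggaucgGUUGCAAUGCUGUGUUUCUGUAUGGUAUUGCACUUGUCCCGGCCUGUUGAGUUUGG
A count of a member is thus a count of reads from either arm, the loop, the precursor or the primary transcript. Of 16 MIR17HG transcripts in GENCODE v44 (chr13:91347686-91397592), 11 span the 6 hairpins, which lie in an exon of 3 of them and in an intron of 8.

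Column sums ranged from 21565995 to 158244813 counts, with overlapping features counted more than once. The microRNA total outside the cluster was a sum over the 737 of 1649 loci that had distinct counts. It fell between 70368 and 230316 counts in cyto libraries, 22399 and 81887 in total libraries and 2577 and 3504 in nuc libraries. The ratio of snoRNA to mitochondrial tRNA counts, a check of the fractions, was 247 to 371 in nuc, 1.71 to 5.46 in cyto and 23.4 to 51.2 in total libraries. Among single RNAs expected to mark a fraction, RNY1, RNY3 and RNY4 were lower in control nuc than in control cyto RNA, NEAT1 was higher (log2 0.81 ± 0.29, adjusted p = 0.0421, edgeR) and MALAT1 did not pass the test (0.19 ± 0.30, adjusted p = 0.70). MicroRNAs of blood cells, liver and muscle (5 markers) had at most 7 counts in any library. The siSSB total replicate 2 stood apart, with the highest microRNA total of its group (81887 against 38893 and 44694) and a TMM factor of 1.75. Control cyto replicate 3 also stood apart from its group, with a column sum of 44712500 against 25382509 and 21565995. Its ratio of snoRNA to mitochondrial tRNA counts was 5.46 against 2.65 and 2.41, and its microRNA total was the lowest of the group (82861). SSB mRNA was not analysed here, so the depth of the knockdown was not checked.

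In the cytoplasm the cluster was dominated by MIR92A1. MIR92A1 had 8521, 6616 and 7393 counts in control cyto and 10529, 6543 and 13166 in siSSB cyto. In nuc libraries it had 192, 138 and 130 counts in control and 163, 171 and 213 in siSSB cells. In total RNA it had 2344, 2117 and 2578 counts in control and 3542, 5553 and 4199 in siSSB cells. MIR92A1, whose mature arm belongs to the miR-25 seed group, was thus the most abundant member in every cyto and every total library, and next to last in every nuc library.

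MIR18A showed no such drop in raw counts from cyto to nuc libraries. In control cells it had 388, 577 and 531 counts in nuc RNA, 357, 358 and 647 in cyto and 731, 670 and 614 in total RNA. In siSSB cells it had 330, 382 and 459 counts in nuc, 425, 391 and 566 in cyto and 453, 368 and 763 in total RNA. The raw counts of MIR18A overlapped between nuc and cyto libraries in both populations, although the microRNA total was many times lower in nuc. In control cells this overlap came from cyto replicate 3 (647 counts), a library that stood apart. Column sums were higher in nuc, at 113296277 to 158244813 in control nuc against 21565995 to 44712500 in control cyto. They were 98928007 to 122706550 in siSSB nuc against 24842041 to 28975535 in siSSB cyto. Equal raw counts are thus a smaller part of a nuc library.

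MIR17 and MIR20A, the pair with a shared seed, had similar counts in most groups but parted in siSSB nuc RNA. In control cells MIR17 had 1283, 1029 and 720 counts in cyto RNA, 385, 493 and 587 in nuc and 492, 354 and 281 in total RNA. MIR20A had 1251, 1017 and 647, then 439, 471 and 664, and 479, 244 and 280 counts in the same libraries. Over the 18 libraries the log2 shares of the microRNA total of this pair correlated at r = 0.993 (Pearson, a description over libraries that share fraction and depth), the highest of all pairs of members. Both shares are divided by the same microRNA total, which was far lower in nuc, and this can raise the correlation. The siSSB counts were 1089, 594 and 2342 (cyto), 428, 527 and 431 (nuc) and 306, 698 and 534 (total) for MIR17. They were 953, 504 and 2017 (cyto), 779, 906 and 693 (nuc) and 261, 641 and 389 (total) for MIR20A. MIR20A thus lay above MIR17 in each siSSB nuc library.

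MIR19A and MIR19B1, whose 3p arms share a seed, did not run in parallel. In control cells MIR19A had 803, 660 and 280 counts in cyto but only 17, 33 and 29 in nuc RNA, with 108, 131 and 92 in total RNA. MIR19B1 had 1429, 872 and 2211 counts in cyto RNA of control cells, 610, 386 and 269 in nuc and 1285, 1427 and 1811 in total RNA. In siSSB cells MIR19A had 466, 177 and 1150 (cyto), 16, 35 and 32 (nuc) and 125, 380 and 154 counts (total), and MIR19B1 had 1093, 1088 and 1375, then 596, 413 and 503, and 1219, 1364 and 1572. MIR19A was the least abundant member in every nuc and in all control total libraries, and the log2 shares of this pair correlated at r = 0.53.

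**Figure D1:**
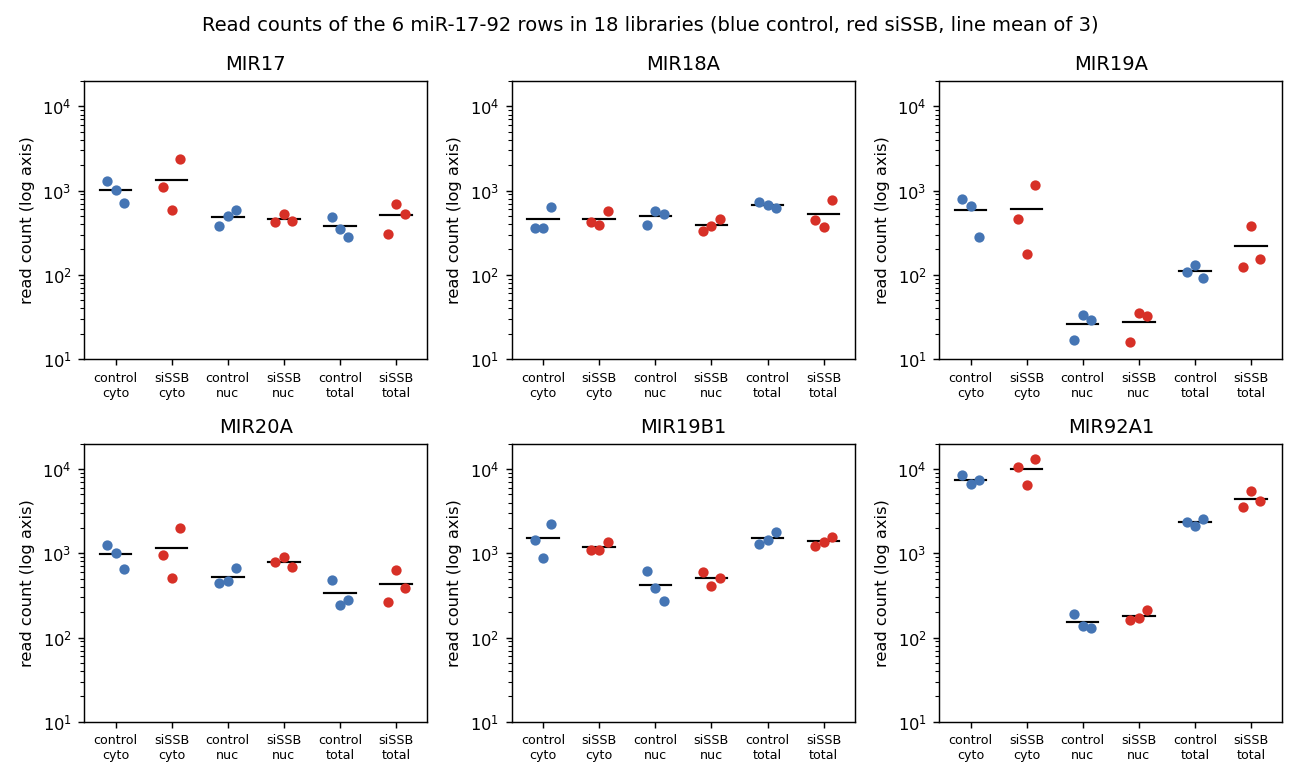
Read counts (log axis) of the 6 members in the 18 libraries. Points are libraries (blue control, red siSSB) and lines are means of 3. MIR92A1 and MIR19A drop from cyto to nuc in both cell populations, while MIR18A lies between 330 and 763 counts throughout. Counts are not scaled to library depth.

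Since the 6 features are of nearly equal length, their shares of the cluster can be compared without any scaling of the libraries. In control cyto, MIR92A1 made up 62.4% ± 0.282 (SD, n = 3) of the counts of the 6 features, against 7.30% ± 1.89 in control nuc. MIR18A made up 3.82% ± 1.46 in control cyto and 23.5% ± 4.22 in control nuc, MIR20A 8.08% ± 2.30 and 24.7% ± 4.64, and MIR17 8.40% ± 2.04 and 23.0% ± 3.83. MIR19A made up 4.83% ± 2.15 and 1.24% ± 0.373, and MIR19B1 12.4% ± 5.43 and 20.2% ± 9.07, with overlap between the fractions for MIR19B1. This overlap came from control cyto replicate 3, at 18.6% against 10.5% and 8.26% in the other control cyto libraries. The lowest control nuc library was at 12.2%. In siSSB cells MIR92A1 was at 68.9% ± 4.44 in cyto and 7.74% ± 1.21 in nuc and MIR20A at 7.25% ± 2.26 and 33.5% ± 3.75. The shares of a library sum to 100%, so that a lower share of MIR92A1 raises those of others. No test was made of them and they have no counterpart over all features, and with 3 libraries against 3 an exact permutation test cannot go below p = 0.1.

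**Figure D2:**
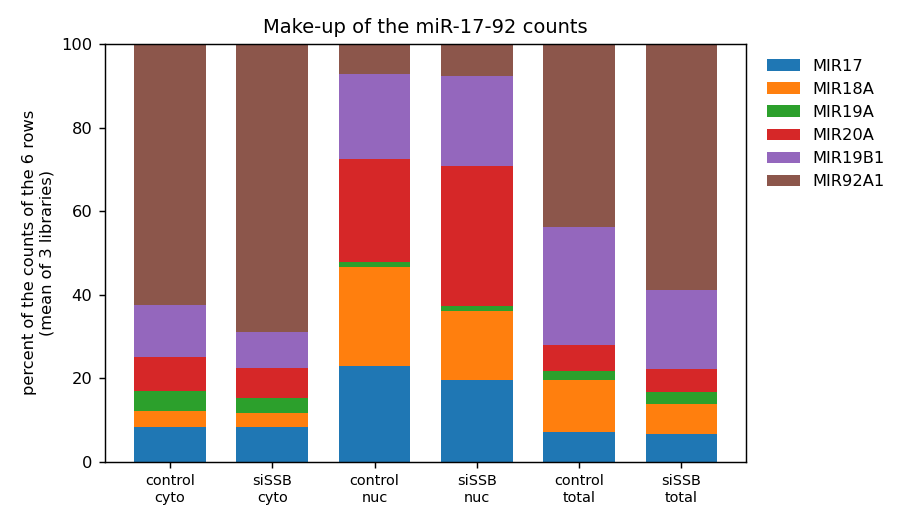
Percent of the counts of the 6 features taken by each member, as the mean of 3 libraries per group. MIR92A1 takes 62.4% in control cyto and 7.30% in control nuc, where MIR17, MIR18A, MIR20A and MIR19B1 take between 20.2% and 24.7% each.

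The cluster also took a larger part of the microRNA counts in nuclear RNA. Of all counts in microRNA loci with a RefSeq name that do not overlap other small RNAs or rRNA sequence, the 6 features held 36.7%, 41.0% and 46.2% in control nuc and 43.3%, 45.0% and 42.6% in siSSB nuc. They held 8.88%, 8.02% and 12.6% in control cyto and 9.62%, 11.7% and 8.22% in siSSB cyto. In total RNA they held 18.3%, 18.1% and 17.3% in control and 13.2%, 9.91% and 14.6% in siSSB cells. The order of fractions rests on which loci are counted as microRNAs. When every feature typed as microRNA or precursor RNA was counted, the share was 2.99% to 3.62% in control nuc and 5.59% to 6.95% in control cyto. This added features without a RefSeq name as well as those inside snoRNAs, other small RNAs or rRNA, and their parts were not separated.

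The comparison of nuc with cyto RNA asks where in the cell the cluster RNAs lie. With TMM scaling, MIR18A and MIR20A were higher and MIR92A1 and MIR19A lower in nuc than in cyto RNA, in control and in siSSB cells alike. This was 2 of 6 members higher and 2 lower in each, against 9.21% of all tested features higher and 14.1% lower in control cells and 10.9% and 14.5% in siSSB cells (edgeR quasi-likelihood test, adjusted p under 0.05 by Benjamini-Hochberg).

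MIR92A1 had 4.80 ± 0.455 CPM in control nuc and 62.4 ± 16.1 CPM in control cyto (mean ± SD, n = 3), a log2 difference of -3.70 ± 0.32 (SE, adjusted p = 6.27e-11, edgeR). In siSSB cells the difference was -3.96 ± 0.36 (adjusted p = 1.29e-09, edgeR). For MIR19A it was -2.59 ± 0.43 (adjusted p = 1.3e-05) in control and -2.65 ± 0.50 (adjusted p = 0.000166) in siSSB cells by the same edgeR test. The CPM of both members did not overlap between fractions, which was so in this direction for 27.5% of all tested features in control and 25.8% in siSSB cells.

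MIR18A had 16.1 ± 4.64 CPM in control nuc and 3.57 ± 0.381 CPM in control cyto, a log2 difference of 2.17 ± 0.31 (adjusted p = 1.46e-06, edgeR). In siSSB cells the difference was 1.58 ± 0.33 (adjusted p = 0.000569, edgeR). MIR18A and MIR20A did not overlap between fractions either (14.3% of all features in this direction in control and 16.6% in siSSB cells). MIR20A differed by 1.02 ± 0.35 (adjusted p = 0.030) in control and 1.23 ± 0.38 (adjusted p = 0.0167) in siSSB cells by edgeR. The call of MIR20A was lost when replicate 2 or 3 of control cyto or of control nuc was left out (log2 0.63 to 1.12, adjusted p = 0.0584 to 0.229, edgeR). In siSSB cells it was lost without replicate 1 or 2 of cyto or replicate 1 of nuc (0.82 to 1.29, adjusted p = 0.0555 to 0.20, edgeR).

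MIR17 and MIR19B1 did not pass the test in either population. MIR17 differed by 0.86 ± 0.34 (adjusted p = 0.0639) in control and 0.25 ± 0.38 (adjusted p = 0.69) in siSSB cells, and MIR19B1 by 0.15 ± 0.31 (adjusted p = 0.777) and 0.59 ± 0.32 (adjusted p = 0.192, edgeR). MIR17 passed without replicate 1 of control cyto (1.08, adjusted p = 0.0446), without replicate 1 of control nuc (1.12, adjusted p = 0.0481) or, in siSSB cells, without replicate 3 of cyto (1.00, adjusted p = 0.0296, edgeR).

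These directions depend on what a library is scaled to. Scaled to the microRNA total outside the cluster, 4 members were higher in control nuc (MIR17, MIR18A, MIR20A and MIR19B1) and 5 in siSSB nuc (MIR19A in addition), with none lower, while 70.9% and 78.7% of all features were then called higher. Scaled to the column sum alone or to the snoRNA total, all 6 were called lower in nuc RNA in both populations. The median log2 difference of all features moved with the scaling, from -0.27 with TMM to -4.34 (column sum), -6.10 (snoRNA total) and 2.86 (microRNA total) in control cells. In control cells MIR18A lay above that median and MIR92A1 below it, with the highest and the lowest value of the 6 members. A scaling factor acts on all features of a library alike. The same order under the 4 scalings was thus largely given beforehand and is no separate support.

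Placed among the microRNA loci that passed a count threshold and do not overlap other small RNAs or rRNA sequence, most members stood at the nuclear end. Features left out of the microRNA total, also those without a RefSeq name or with another RNA type, were not ranked. Counting all microRNA features raised the total outside the cluster to between 47444 and 71812 counts in nuc libraries. The features left out thus held most of the nuclear counts. In control cells, 87 microRNA loci had a mean of at least 50 counts over the nuc and cyto libraries, and the 81 outside the cluster had a median log2 ratio of nuclear to cytoplasmic share of -0.22 (quartiles -0.58 and 0.20). MIR18A ranked 2 with 5.25, MIR20A 3 with 4.42, MIR17 4 with 4.25 and MIR19B1 6 with 3.20. MIR4449 ranked 1 (7.96) and MIR12136 ranked 5 (3.38). MIR19A ranked 10 with 0.89 and MIR92A1 ranked 60 with -0.44, within the range of the other loci. In siSSB cells, over 99 loci, MIR18A, MIR20A, MIR17 and MIR19B1 ranked 2 to 5 (5.11, 5.10, 4.10 and 4.08), MIR19A 9 and MIR92A1 62. Nuclear counts of most of the other loci were low, and this ordering is given without a test. The threshold was set on nuc and cyto counts together, and the microRNA total was far lower in nuc. A locus could thus pass through its cyto counts alone, while one with moderate nuclear and few cyto counts could be dropped. The effect of this on the ranks of the members was not tested.

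**Figure D3:**
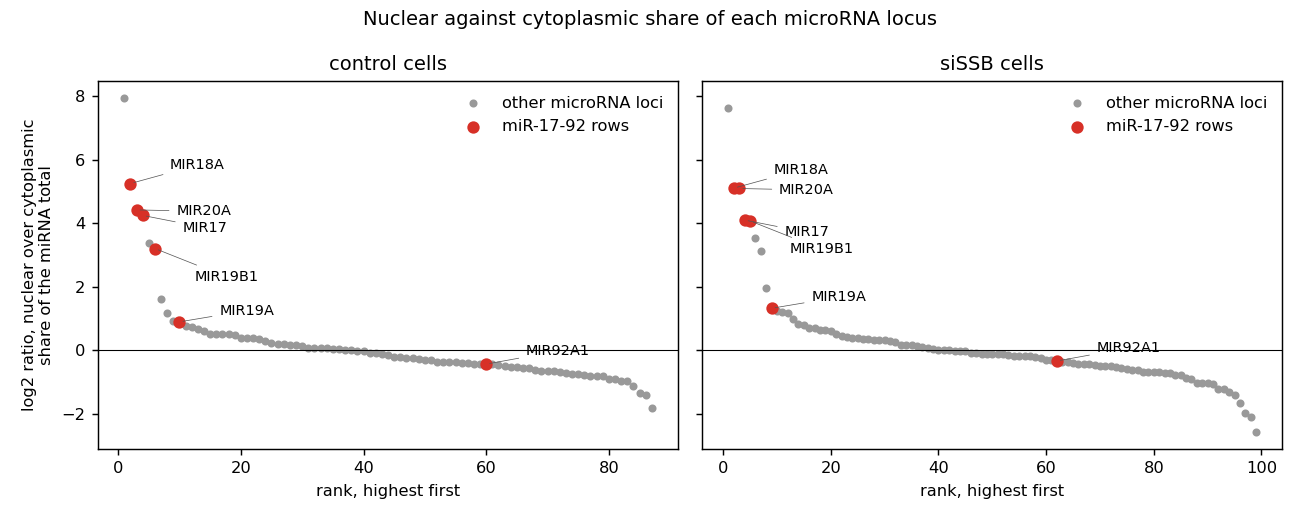
Log2 ratio of the nuclear to the cytoplasmic share of the microRNA total for each locus with a mean of at least 50 counts, against its rank (87 loci in control, 99 in siSSB cells). Red points are the 6 members, of which MIR18A, MIR20A, MIR17 and MIR19B1 lie between 3.20 and 5.25 and MIR92A1 near the median of the other loci (-0.22 in control cells).

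For MIR17, the host gene features show which part of the hairpin was counted. A MIR17HG feature at chr13:91349098-91350647 ends inside the hairpin and holds all 23 bases of miR-17-5p and none of miR-17-3p. It had 1264, 1017 and 674 counts in control cyto, close to the 1283, 1029 and 720 of MIR17 itself. In control nuc it had 38, 34 and 20 counts, against 385, 493 and 587 for MIR17. At least 90.1%, 93.1% and 96.6% of the nuclear MIR17 counts thus lay outside that feature, away from miR-17-5p, against 1.48%, 1.17% and 6.39% in control cyto.

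In siSSB cells the same part was at least 92.1%, 96.4% and 92.6% in nuc, and 1.38%, 0% and -0.299% in cyto, where the negative value arises because the host feature also holds upstream reads. The feature itself was lower in control nuc than in control cyto by TMM scaling (log2 -3.15 ± 0.38, adjusted p = 4.15e-08, edgeR), close to MIR92A1 and unlike MIR17. In total RNA at least 56.1%, 35.3% and 29.2% of the MIR17 counts lay outside the feature in control cells and 17.3%, 2.44% and 20.4% in siSSB cells. These total RNA ranges did not overlap, at 40.2% ± 14.1 and 13.4% ± 9.61 (SD, n = 3), while those of nuc and of cyto RNA overlapped. The difference was not tested and has no counterpart over all features.

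**Figure D4:**
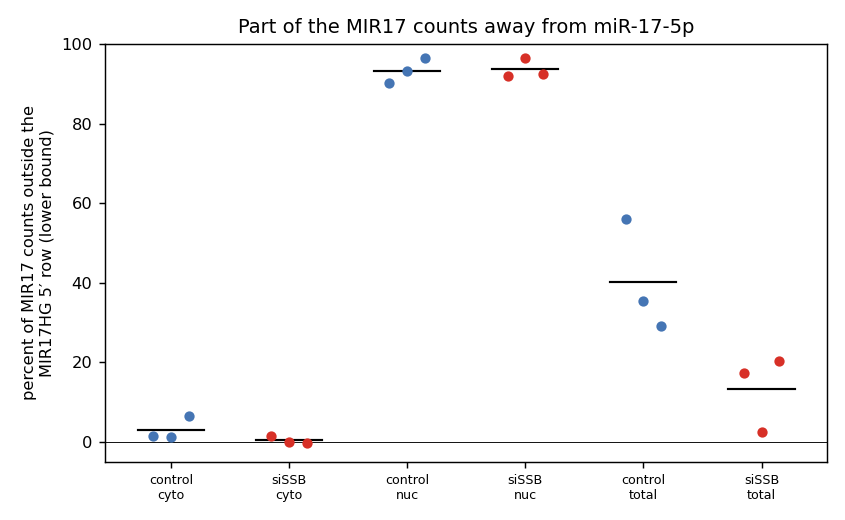
Percent of the MIR17 counts that lie outside the MIR17HG feature ending in its hairpin, a lower bound for reads away from miR-17-5p. Points are libraries (blue control, red siSSB) and lines are means of 3. All nuc libraries are above 90% and all cyto libraries below 7%, while in total RNA control lies between 29.2% and 56.1% and siSSB between 2.44% and 20.4%.

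At the other end of the cluster, a MIR17HG feature at chr13:91351379-91354603 takes in the last 4 bases of miR-92a-3p. It shares 29 bases with the MIR92A1 feature and runs on downstream for most of its length, so its counts can include reads outside MIR92A1 and give only an upper bound for the reads in both. Its counts equalled 90.0% to 97.6% of those of MIR92A1 in cyto, 94.3% to 99.4% in nuc and 90.1% to 97.3% in total libraries. The longer MIR17HG features added little beyond the 6 members: the shortest that spans the cluster (chr13:91347917-91352121) held at least 0.449% to 1.45% of its counts outside them. Its level followed the sum of the members and gives no separate measure of the host transcript.

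The knockdown comparison asks whether loss of La changes the cluster. No member was called in total, nuc or cyto RNA with TMM scaling. In total RNA 0.367% of all 13883 tested features were called higher and 0.972% lower, in nuc RNA 0.0291% and 0.349% of 6873, and in cyto RNA 0.0211% and 0.27% of 18921 (edgeR quasi-likelihood test, Benjamini-Hochberg).

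MIR92A1 came nearest in total RNA, with 63.4 ± 4.99 CPM in siSSB and 37.3 ± 3.60 CPM in control cells and no overlap. The log2 difference was 0.76 ± 0.27 (unadjusted p = 0.0147, adjusted p = 0.17, edgeR), and CPM ranges were apart in this direction for 10.6% of all features. MIR19A differed by 0.77 ± 0.32 (unadjusted p = 0.0304, adjusted p = 0.248, edgeR) with overlapping groups. The other members were at 0.25 ± 0.31 (MIR17), 0.15 ± 0.33 (MIR20A), -0.23 ± 0.26 (MIR19B1) and -0.45 ± 0.33 (MIR18A), with adjusted p from 0.572 to 0.875 by edgeR. The median of the 6 log2 differences was 0.20.

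Scaling again moved these values, and with them the median of all features, from -0.01 with TMM to 0.55 (column sum), 0.72 (snoRNA total) and -0.97 (microRNA total). Scaled to the microRNA total, MIR18A (log2 -1.32 ± 0.38, adjusted p = 0.0122), MIR19B1 (-1.14 ± 0.34, adjusted p = 0.0131) and MIR20A (-0.82 ± 0.29, adjusted p = 0.0308, edgeR) were called lower in siSSB total RNA, but so were 51.4% of all features. Scaled to the column sum alone or to the snoRNA total, MIR92A1 and MIR19A were called higher (1.36 and 1.53 for MIR92A1, 1.49 and 1.70 for MIR19A). MIR92A1 was also called by DESeq2 (0.76, adjusted p = 0.0465).

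The make-up of the cluster in total RNA needs no scaling. MIR92A1 made up 60.0%, 61.7% and 55.2% of the cluster in siSSB and 43.1%, 42.8% and 45.6% in control cells. MIR19B1 made up 20.6%, 15.1% and 20.7% in siSSB and 23.6%, 28.9% and 32.0% in control cells, and MIR18A 7.67%, 4.09% and 10.0% against 13.4%, 13.6% and 10.9%. MIR92A1 thus took a larger share in each siSSB than in each control library, also without siSSB total replicate 2, the total library that stood apart. MIR18A came within 1 percentage point between the nearest libraries of the groups (10.0% and 10.9%), and the shares of MIR17, MIR19A and MIR20A overlapped. Since the shares sum to 100%, those of the other members are not independent of MIR92A1, and the difference was not tested. The snoRNA content of replicate 2 was low as well, at 23.4 snoRNA counts per mitochondrial tRNA count against 47.4 and 51.2 in the other siSSB total libraries, and the part of this in the make-up was not tested.

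The share of the cluster in the microRNA total was also lower in siSSB total RNA, at 12.5% ± 2.39 against 17.9% ± 0.507 (SD, n = 3) without overlap. This was not tested and has no counterpart over all features. When all microRNA features were counted, the shares overlapped, at 6.27%, 6.43% and 8.76% in siSSB and 8.02%, 8.20% and 7.47% in control total RNA. The microRNA total was itself higher in siSSB total libraries, at 38893, 81887 and 44694 counts against 24348, 22399 and 27029.

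In the fractions no member passed the test either, and the lowest unadjusted p was 0.133 in nuc and 0.234 in cyto RNA (edgeR). In nuc RNA the log2 differences ran from -0.43 ± 0.32 (MIR18A) to 0.49 ± 0.31 (MIR20A), with adjusted p from 0.469 to 0.982, and a median of 0.10. In cyto RNA they ran from -0.35 ± 0.28 (MIR19B1) to 0.31 ± 0.32 (MIR92A1), with adjusted p from 0.88 to 0.998 and a median of 0.04 (edgeR). The share of MIR92A1 in the cluster was 72.3%, 70.4% and 63.9% in siSSB cyto and 62.4%, 62.7% and 62.1% in control cyto, again without overlap, and overlapped in nuc. The nearest cyto libraries were at 63.9% and 62.7%, and these shares were not tested. The nuclear minus the cytoplasmic knockdown difference was called for none of the 6 members, with values from -0.62 ± 0.53 (MIR17) to 0.45 ± 0.45 (MIR19B1) and adjusted p of at least 0.969, when 0.0133% of 37493 features were called in either direction (edgeR).

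**Figure D5:**
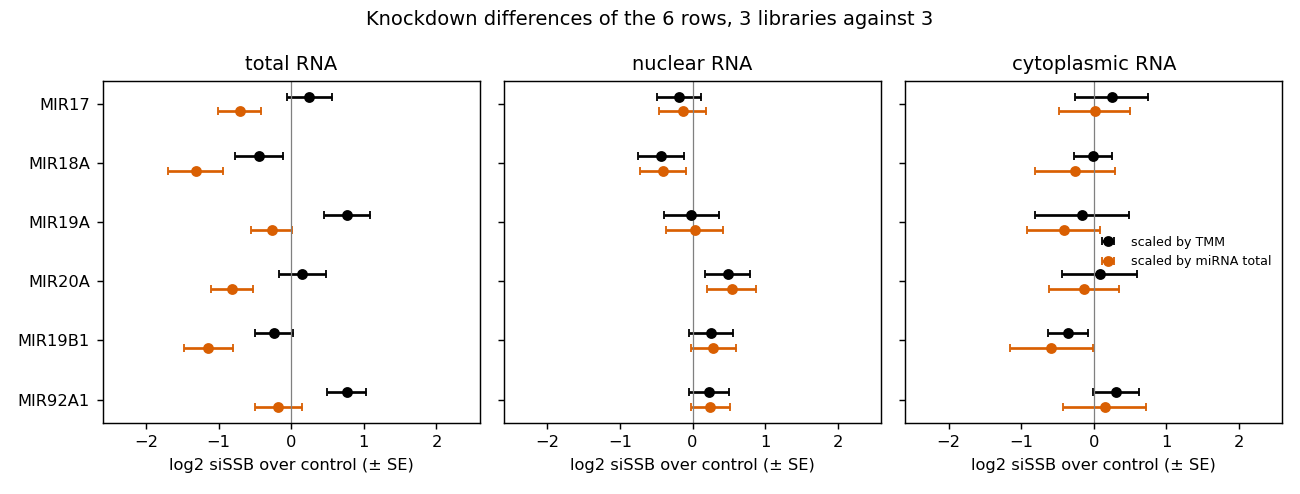
Log2 difference of siSSB over control for each member (± SE, 3 libraries against 3), scaled by TMM (black) or by the microRNA total outside the cluster (orange). In total RNA the black points lie between -0.45 and 0.77 and the orange points between -1.32 and -0.18, while both scalings lie close together in nuc RNA.

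The cluster has 2 paralogous clusters, miR-106a-363 on the X chromosome and miR-106b-25 on chromosome 7, whose 9 members share its seeds. MIR25, with the seed of miR-92a, was the most abundant paralog after MIR92A2, with 2814, 2049 and 1533 counts in control cyto and 58, 45 and 43 in control nuc. MIR93, which shares its seed with miR-17, had 488, 371 and 305 counts in control cyto and 8, 15 and 9 in control nuc, and MIR106B had 378, 326 and 294, and 28, 22 and 12. MIR106A, MIR18B, MIR20B and MIR363 had at most 46, 3, 6 and 1 counts in any library.

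With TMM scaling, the paralogs tested were lower in nuc than in cyto RNA, 5 of 5 in control and 6 of 6 in siSSB cells, against 14.1% and 14.5% of all tested features. Scaled to the microRNA total, none of them was called lower, MIR106B was called higher in control cells, and the median log2 difference was -0.21 in control and -0.18 in siSSB cells, against -3.58 and -3.98 with TMM. The log2 difference in control cells with TMM was -3.58 ± 0.37 for MIR25 (adjusted p = 1.5e-09), -3.28 ± 0.41 for MIR93 (adjusted p = 9.01e-08) and -2.12 ± 0.36 for MIR106B (adjusted p = 2.26e-05, edgeR). With this scaling, the values were of the sign of MIR92A1 and MIR19A, and opposite in sign to MIR18A and MIR20A. The MIR93 feature ran around its 5p arm, and those of MIR25 and MIR106B held both arms. Member features ran around the 3p arm. The counted parts were thus not matched, and what this adds to the contrast was not tested. No paralog was called in a knockdown comparison, and MIR25 in total RNA was at 0.76 ± 0.25 (adjusted p = 0.144, edgeR), beside 0.76 for MIR92A1.

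MIR92A2 had 7205, 5817 and 6187 counts in control cyto, 83.7% to 87.9% of those of MIR92A1 in the same libraries. Its miR-92a-3p is identical, and reads of that arm cannot be told apart from those of MIR92A1. MIR19B2, whose mature arm is identical to that of MIR19B1, had 139, 100 and 39 counts in control cyto, only 9.73%, 11.5% and 1.76% of those of MIR19B1, and at most 3 in any nuc library. These are counts of features, not of arms. The MIR92A2 feature held only part of miR-92a-3p, while that of MIR92A1 held all of it. The MIR19B2 feature was 130 nt long, against 73 nt for MIR19B1. The counted parts were thus not matched, so the ratios do not show how reads of the identical arms were divided between the loci.

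Over the 18 libraries, the microRNAs outside the cluster and its paralogs whose log2 share followed that of the cluster total most closely, among 79 loci with a mean of at least 50 counts, were MIR12136 and MIR4449 (both r = 0.974), MIRLET7G (0.869), MIR92B (0.867) and MIRLET7F1 (0.834). MIR4449 had 205, 162 and 162 counts in control nuc and 14, 22 and 35 in control cyto. MIR12136 had 156, 115 and 166 counts in control nuc and 322, 356 and 738 in control cyto. The correlations are descriptions over libraries that share fraction and depth. Both shares are divided by the same microRNA total, which was far lower in nuc, so RNAs that do not fall with it rank high.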

How the data were processed

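The authors deposited raw counts per noncoding RNA feature without normalization, made per the labels with Bowtie2 and bedtools on hg38. The study gives versions and trimming for other libraries or for RNA-seq in general, and for these small RNA libraries they, the treatment of reads with several positions and the use of strand are not given in the sources used here, and no molecular identifiers are described. The counts were tested with edgeR 4.0.16 in R 4.3.3 (glmQLFit, glmQLFTest, TMM, filterByExpr, group means only) on the 6 libraries of each comparison, or on the 12 fraction libraries for the difference of knockdown effects. The Benjamini-Hochberg adjustment ran over every feature in a fit, with calls under an adjusted p of 0.05. CPM are counts relative to the TMM-scaled library size. A log2 difference is given ± its standard error.

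Members and lists were chosen with earlier results of these data known. Named were all members, the host, the measured paralogs and the 5 most similar microRNAs. The microRNA total took features with a RefSeq microRNA name and no RNA type besides microRNA, precursor or miscellaneous RNA. It left out 24 features overlapping other small RNAs and 15 with a 20-mer of 45S rRNA. This gave 1 feature for each of 1649 loci outside the cluster, of which the 737 with distinct counts were summed. A second total over all features typed as microRNA or precursor RNA, overlapping ones taken once, was added after seeing the data. The other alternatives were library size alone, snoRNA total, DESeq2 1.42.0, no filter beyond 1 count, all 18 libraries in 1 fit, a replicate block and leaving out each library.

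Sequences of all 6 members and 9 paralogs were matched by symbol in RefSeq. The sources call the replicates biological and, for genomic experiments, handled within a day, without saying whether they were separate cultures, so p-values measure the spread between these libraries. Equal replicate numbers did not deviate together (15 pairs, r from -0.24 to 0.05), so they were not treated as pairs. Fits were tested on simulated data.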

Additional observations from a re-analysis of the deposited data

How the results depend on the processing

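Scaling decided most of what changed. Knockdown, total RNA: scaled to library size alone, 2 members were called higher and the cluster total differed by 0.92, MIR18A by 0.0093 and MIR19B1 by 0.26 (log2 throughout). Scaled to the snoRNA total, 2 were called higher, with 1.09, 0.13 and 0.40. Scaled to the microRNA total, 3 were called lower, with the cluster total at -0.60, MIR17 -0.71, MIR19A -0.27, MIR20A -0.82 and MIR92A1 -0.18. DESeq2 called 1 higher. The TMM value of the cluster total was 0.34.

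Knockdown, nuc RNA: library size alone gave 0.43 for the cluster total, 0.17 for MIR17 and 0.35 for MIR19A, and the snoRNA total 0.36, 0.10 and 0.28, against 0.08 for the total with TMM. The microRNA total gave 0.028 for MIR19A. Knockdown, cyto RNA: MIR18A was at 0.20 (library size), 0.39 (snoRNA total), 0.034 (DESeq2), 0.00029 (no filter) and 0.0075 (18 libraries), MIR19A at 0.012 (library size) and 0.17 (snoRNA total), MIR19B1 at 0.067 (snoRNA total) and MIR20A at -0.14 (microRNA total). None of these knockdown reversals in the fractions passed the test.

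Nuc against cyto, control cells: library size alone and the snoRNA total called 0 members higher and 6 lower, with the cluster total at -4.76 and -6.59 (TMM -0.56), MIR17 at -3.35 and -5.20, MIR18A -1.99 and -3.78, MIR20A -3.20 and -5.05 and MIR19B1 -4.01 and -5.80. The microRNA total called 4 higher and 0 lower, with the cluster total at 2.70 and MIR19A at 0.88. DESeq2, no filter and the 18-library fit each called 1 higher, and MIR19B1 was at -0.33 without the filter. siSSB cells: library size alone and the snoRNA total called 0 higher and 6 lower, with the cluster total at -4.71 and -6.78 (TMM -0.84), MIR17 at -3.61 and -5.69, MIR18A -2.29 and -4.34, MIR20A -2.62 and -4.70 and MIR19B1 -3.30 and -5.35. The microRNA total called 5 higher and 0 lower, with the cluster total at 2.83 and MIR19A at 1.32. DESeq2 and no filter each called 1 higher, and MIR17 was at -0.15 without the filter.

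Difference of knockdown effects: MIR19A was at 0.33 (library size), 0.43 (microRNA total) and 0.10 (snoRNA total), and MIR92A1 at 0.060 (library size) and 0.10 (microRNA total), with 0 members called under every setting.

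Leaving out 1 library at a time, the members called higher in nuc RNA ranged from 1 to 3 in control and in siSSB cells and those called lower stayed at 2, and no knockdown call appeared. Knockdown values that changed sign ranged from -0.060 to 0.60 (MIR20A, total), -0.46 to 0.013 (MIR17, nuc), -0.39 to 0.23 (MIR19A, nuc), -0.071 to 0.35 (MIR92A1, nuc), -0.48 to 0.58 (MIR17, cyto), -0.21 to 0.13 (MIR18A, cyto), -1.13 to 0.25 (MIR19A, cyto) and -0.65 to 0.42 (MIR20A, cyto). MIR19B1 in control nuc against cyto ranged from -0.15 to 0.35 and MIR17 in siSSB cells from -0.17 to 1.00. Differences of knockdown effects ranged from -0.94 to 0.23 (MIR17), -0.47 to 1.04 (MIR19A), -0.11 to 1.07 (MIR20A) and -0.50 to 0.12 (MIR92A1). The cluster total ranged from 0.25 to 0.45 (total), -0.10 to 0.16 (nuc) and -0.17 to 0.40 (cyto) for the knockdown, and from -0.80 to -0.42 in control and -1.12 to -0.47 in siSSB cells for nuc against cyto.

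With a replicate block, 3 members were called higher in control nuc RNA, MIR17 in addition (0.91, adjusted p = 0.00862, edgeR), MIR20A was at -0.080 in the cyto knockdown and MIR19A at 0.23 in the difference of effects. No other call of a member changed with the block, and equal numbers did not pair the libraries (r from -0.24 to 0.05).

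With all microRNA features in the total, a choice made after seeing the data, the mean cluster share was 7.90% in control total, 7.15% in siSSB total, 3.37% in control nuc, 4.17% in siSSB nuc, 6.13% in control cyto and 6.29% in siSSB cyto. The cause of these changes was not tested. The nuc libraries held 16 to 35 counts of MIR19A, which limits its precision, and intervals for reads without molecular identifiers would cover counting error only.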

Other observations

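Of the paralogs, MIR106B, MIR25 and MIR19B2 had both a hairpin and an arm feature. Those of MIR25 and MIR19B2 held the same counts in every nuc library (58, 45 and 43 in control and 42, 40 and 47 in siSSB cells for MIR25). Those of MIR106B held nearly the same counts in cyto libraries (378 and 378, 326 and 326, and 294 and 293 in control) but differed in most nuc libraries. There the hairpin feature had 28, 22 and 12 counts and the arm feature 13, 9 and 7 in control cells, against 31, 22 and 9 and 7, 19 and 9 in siSSB cells. The log2 difference between control nuc and control cyto was -2.12 ± 0.36 for the hairpin feature and -3.20 ± 0.39 for the arm feature of MIR106B (adjusted p = 5.96e-08, edgeR).

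The part of the MIR19B1 counts matched by MIR19B2 varied between replicates of a group. MIR19B1 had its highest count, 2211, in control cyto replicate 3, where MIR19B2 had 39 counts, and MIR19B2 had its highest count, 179, in siSSB cyto replicate 3, where MIR19B1 had 1375.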
